A study of Drosophila melanogaster with 7 samples.

Results

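RNA from the tagged nuclei of all mature neurons was compared, gene by gene, with RNA from the whole dissected brain of adult Drosophila melanogaster. The comparison takes every fly gene of a table of gene levels, 15551 in all, in 2 of its 6 libraries. The first library comes from flies in which R57C10-GAL4 drives unc84-GFP, a nuclear envelope protein fused to GFP, in all mature neurons. Its label gives the source as head neurons and the tissue as head, and the nuclei were captured on antibody-coated beads from frozen heads, with 600 to 10000 heads in a preparation. The second library is labelled as all cells of the dissected adult brain, with no driver and no genotype given. The other 4 libraries, nuclei tagged by OK107-GAL4, mainly from mushroom body neurons, and by Tdc2-GAL4, from octopaminergic neurons, 2 of each, serve here to estimate the spread and for reference. The labels list 2 R57C10 samples and 1 whole brain sample of the 7 in the series. The table holds a single R57C10 library, and whether it is one of those samples or a pool of both is not stated. The labels give no sex.

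The groups differ in more than cell type. Every sample is labelled as nuclear RNA, the whole brain included, while the extraction text describes bead-bound nuclei and breaks off where it turns to the whole tissue. The labels place the tagged nuclei in the head and the other library in the brain, although the table's column for R57C10 also says brain. Cell makeup, nuclear against whole-cell RNA, head against brain, genotype and handling cannot be told apart in this design. Fewer cells of a type and less RNA per cell of that type cannot be told apart either.

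The adult fly brain is made mainly of neurons, with glia that wrap them, feed them, clear transmitter from around them and form the barrier to the blood. A neuron differs from a glial cell in its voltage-gated channels, its transmitter receptors and its machinery for releasing vesicles. RNA in a nucleus includes transcripts that are still being made or spliced, whereas long-lived messengers, such as those for ribosomal proteins and metabolic enzymes, collect in the cytoplasm. Nuclear RNA therefore ranks genes differently from whole-cell RNA even within a single cell type.

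Levels are FPKM, fragment counts scaled to transcript length and sequencing depth, as estimated by the authors. From the steps between low values, depth was about 36.5 M reads in R57C10 and 57.6 M in whole brain. At least 1 FPKM was listed for 8774 genes in R57C10 and 8486 in whole brain, and 7832 genes reached it in both. Differences are given as R57C10 minus whole brain on the log2(FPKM + 1) scale, which understates the change of genes at low levels, with the standard error from limma. With a single library on each side, the spread was taken from the OK107 and Tdc2 pairs, on 2 residual degrees of freedom, on the assumption that the lone libraries vary as those pairs do. Between R57C10 and whole brain the log2 ratios of genes had an SD of 1.28, against 0.175 for the OK107 libraries and 0.387 for the Tdc2 libraries. Whether the libraries of a pair came from separate preparations is not stated, so the p-values measure only the spread between them.

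Of the 9605 genes tested, 2140 (22.3%) were higher in R57C10 and 3155 (32.8%) were lower at a Benjamini-Hochberg adjusted p under 0.05, or 55.1% in either direction. A further 6.61% had an unadjusted p under 0.05 and were not called. At least 2-fold differences on the same scale were found for 1433 genes (14.9%) in the higher direction and 2099 (21.9%) in the lower. At least 4-fold differences were found for 496 (5.16%) and 563 (5.86%). The median difference of all genes tested was -0.22, so the balance of calls depends on scaling. Of the calls, 40.42% were in the higher direction as deposited. With each library centred on its median the median difference became 0.12, with 3078 genes higher and 2068 lower (59.81% of calls higher). After quantile normalization 2461 were higher and 2068 lower (54.34%). Counts under the other scalings are given below for the gene groups whose split they moved most.

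**Figure D1:**
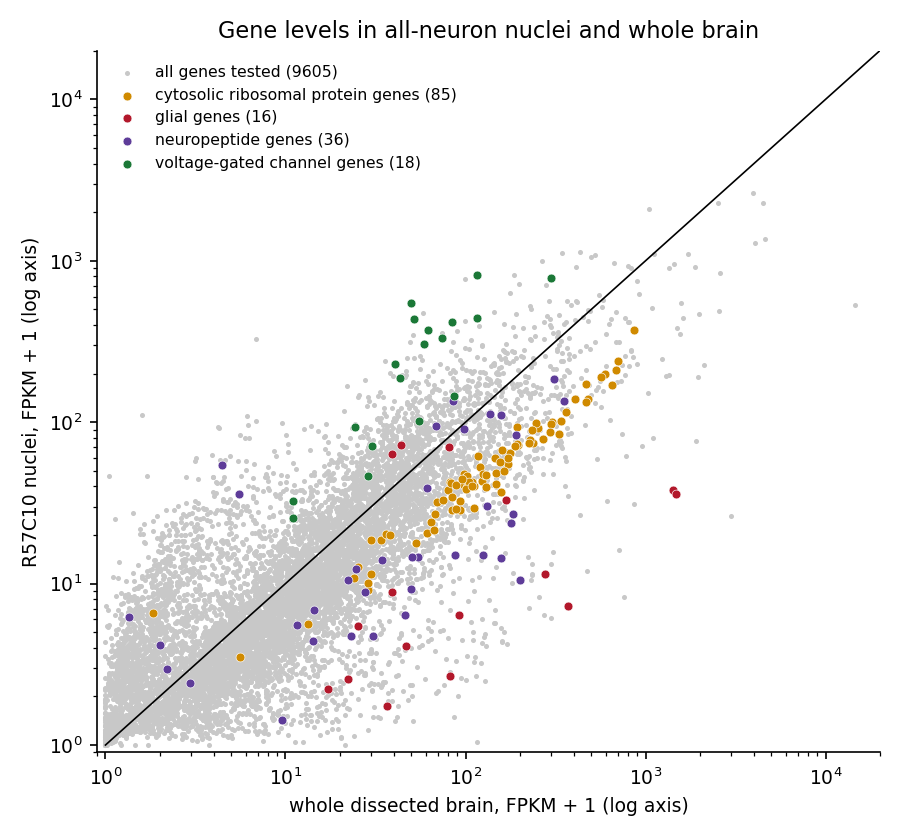
Level of each of the 9605 genes tested in whole brain (horizontal) and R57C10 nuclei (vertical), as FPKM + 1 on log axes, with the line of equal levels; each point is a gene and each axis is 1 library. The 18 genes of the voltage-gated channel list lie above the line, and most glial, ribosomal protein and neuropeptide genes lie below it.

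Glial genes were mostly lower in the tagged nuclei. Of 18 listed glial genes 16 were tested, and 13 were lower in R57C10 against 1 higher. That is 81.2% lower, against 32.8% of all genes tested. The list's median difference was -3.31, against -0.22 for all genes. Summed over the 17 genes with a value in every library, the level was 349 FPKM in R57C10 and 4218 in whole brain, and lay between 506 and 876 in the other 4 libraries. No gene of the list was at 0 in either library.

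Gs2, nrv2 and CG1732 were among the genes with the largest differences of the list. Gs2, a glutamine synthetase, was listed at 36.8 FPKM in R57C10 and 1419.7 in whole brain, with 99.4 and 106 in the OK107 libraries and 268 and 285 in the Tdc2 libraries. Whole brain was the highest of the 6 libraries and R57C10 the lowest, a 38.6-fold difference between them (log2 difference -5.23 ± 0.14 SE, adjusted p = 0.00028). nrv2, a subunit of the sodium pump, stood at 35 FPKM against 1474, with 63.3 to 136 elsewhere (-5.36 ± 0.26, adjusted p = 0.00043). The gene listed as CG1732, now Gat, a GABA transporter, was at 6.30 against 369 FPKM (-5.66 ± 0.29, adjusted p = 0.00047). For both genes R57C10 was again the lowest library.

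repo, wrapper and axo were lower too. repo, a glial transcription factor, was at 1.57 FPKM in R57C10 and 21.3 in whole brain, with 3.54 and 3.38 in the OK107 libraries and 11.7 and 11 in the Tdc2 libraries. That is a 13.6-fold difference (log2 difference -3.12 ± 0.17 SE, adjusted p = 0.00053). wrapper, which encodes a surface protein of ensheathing midline glia in the embryo, was at 0.734 against 35.5 FPKM (-4.40 ± 0.20, adjusted p = 0.00040). axo, a neurexin-family gene, was at 3.13 against 45.8 FPKM (-3.50 ± 0.20, adjusted p = 0.00054). The exception was drpr, an engulfment receptor, at 70.8 FPKM in R57C10 and 42.6 in whole brain (0.72 ± 0.20, adjusted p = 0.033). Nrx-IV, a septate junction protein, and Eaat2, a transporter of acidic amino acids, did not pass, at 62.3 against 38.1 and 68.9 against 80.3 FPKM. Under median centring and under quantile normalization 13 glial genes were still lower and 2 were higher.

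**Figure D2:**
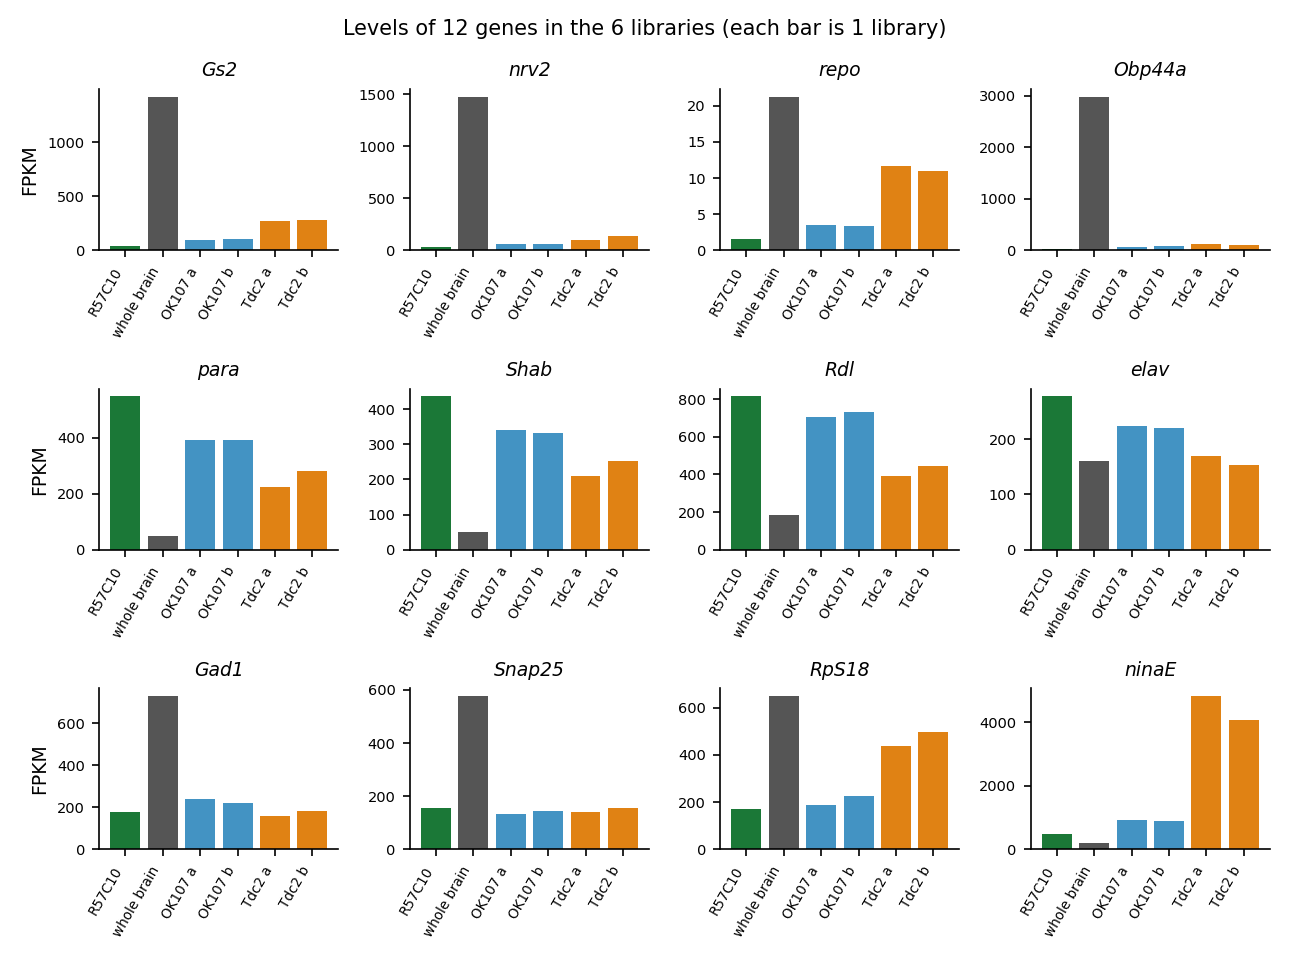
FPKM of 12 genes in each of the 6 libraries, with axes from 0; each bar is 1 library, so there are no error bars. Gs2, nrv2, repo and Obp44a are highest in whole brain, para, Shab and Rdl are lowest there, and Snap25, Gad1 and RpS18 are highest there.

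Fat body genes were mostly lower as well. Of 11 tested 9 were lower in R57C10 (81.8%, against 32.8% of all genes tested) and none was higher, or 1 under median centring. Their median difference was -2.95. Yp1, which encodes a yolk protein made by the fat body of females, was at 227 FPKM in R57C10 and 2113 in whole brain, with 22.6 and 23.7 in the OK107 libraries and 4104 and 3428 in the Tdc2 libraries. R57C10 was 9.33-fold below whole brain (log2 difference -3.22 ± 0.17 SE, adjusted p = 0.00053), between the OK107 and the Tdc2 levels. Rfabg, the precursor of the blood lipoprotein, was at 103 against 633 FPKM (-2.61 ± 0.13, adjusted p = 0.00045). roX1, a noncoding RNA of the male dosage compensation machinery, went the other way, at 6.27 FPKM in R57C10, 0.0122 in whole brain and 3.53 to 7.15 in the rest (2.84 ± 0.19, adjusted p = 0.00073). Whole brain was thus the lowest library for the male-specific RNA, while Yp1 was higher in it than in R57C10 or OK107. roX1 came from a list of nuclear noncoding RNA genes, in which Hsromega was the other gene tested. Hsromega was also lowest in whole brain, at 1.96 FPKM against 11.4 in R57C10 and 5.66 to 14.7 elsewhere (log2 difference 2.06 ± 0.58 SE). As the labels give no sex, a difference in sex makeup between the libraries cannot be told apart from the other differences.

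Cg25C and vkg, the type IV collagen chains of basement membranes, were at 3.49 against 94.4 FPKM and at 1.68 against 39.9 FPKM, R57C10 first. Both were lower in R57C10 (log2 differences -4.41 ± 0.39 SE and -3.93 ± 0.36, adjusted p = 0.0014 and 0.0015). With them, 4 of 8 hemocyte and basement membrane genes tested were lower (50%, against 32.8% of all genes tested). None was higher, or 1 under median centring. Among 19 muscle genes 5 were lower (26.3%, against 32.8% of all genes tested) and 1 was higher, and under median centring 3 and 2. The muscle gene that was higher, Mlp84B, a LIM protein, lies inside an intron of another gene, Alh, and was at 27.2 against 9.51 FPKM (1.42 ± 0.28, adjusted p = 0.012). Of 8 tracheal and cuticle genes only Cht2, a chitinase, was called (12.5% lower, again under the share of all genes), at 0.157 FPKM in R57C10 and 3.95 in whole brain (-2.10 ± 0.31, adjusted p = 0.0050).

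Genes expressed by neurons in general did not move one way. Of 18 tested pan-neuronal genes 7 were higher in R57C10 and 7 were lower, with a median of 0.04. That is 38.9% each way, against 22.3% higher and 32.8% lower among all genes tested. The higher ones include para and cac, which are also in the list of voltage-gated channel genes below. The 18 pan-neuronal genes made up 3.51% of the FPKM of genes with a value in every library in R57C10 and 2.80% in whole brain. Under median centring the split was 8 to 4 and after quantile normalization 10 to 2. elav, the RNA-binding protein used as a neuronal marker, was at 277 FPKM in R57C10 and 161 in whole brain, and between 153 and 223 in the other libraries (log2 difference 0.78 ± 0.14 SE, adjusted p = 0.0082). Rim, a scaffold of the presynaptic active zone, was at 243 against 56.4 FPKM and unc-13, a vesicle priming factor, at 1118 against 344 FPKM. Both were higher in R57C10 (2.09 ± 0.16 and 1.70 ± 0.18, adjusted p = 0.0011 and 0.0020).

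Snap25 and comt, of the vesicle fusion machinery, were lower, while n-syb did not pass. Snap25, a SNARE protein, was at 155 FPKM in R57C10 and 578 in whole brain, with 133, 146, 139.7 and 156 in the OK107 and Tdc2 libraries. The 5 libraries of tagged nuclei lay close together and whole brain stood 3.74-fold above R57C10 (log2 difference -1.89 ± 0.16 SE, adjusted p = 0.0012). comt, the NSF ATPase that takes SNARE complexes apart, was at 66.3 against 246 FPKM (-1.88 ± 0.15, adjusted p = 0.0011). n-syb, the vesicle SNARE, was at 1096 against 1112 FPKM. cpx, complexin, a clamp on fusion, was at 2266 FPKM in R57C10 and 4481 in whole brain (-0.98 ± 0.17, adjusted p = 0.0072), but was not called after quantile normalization. Syt1 and brp lacked a value in 1 library each and were not tested. The 18 tested genes had a median annotated span of 29390 bases, and of the 6 that touch no other gene 1 was higher and 3 were lower.

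Genes of the voltage-gated ion channel list were higher in R57C10 without exception among the 18 tested, also under both other scalings. Among all genes tested 22.3% were higher. The list also holds SK, a channel gated by calcium, and Hk, qvr and tipE, which encode partners of channels. The median difference of the 18 genes was 2.04, and 15 were at least 2-fold higher. Summed over these 18 genes, the level was 5370.1 FPKM in R57C10, 1224 in whole brain and 2463 to 3874 in the other libraries. para, the voltage-gated sodium channel that carries the action potential, was at 547 FPKM in R57C10, 48.7 in whole brain, 393 and 391 in OK107, and 223 and 282 in Tdc2. Whole brain was the lowest library by far, 11.2-fold under R57C10 (log2 difference 3.46 ± 0.20 SE, adjusted p = 0.00058).

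Among potassium channels Shab, a delayed rectifier, was at 436 against 50.7 FPKM, with 209 to 341 in the other libraries (log2 difference 3.08 ± 0.17 SE, adjusted p = 0.00058). SK, a small-conductance calcium-activated channel, was at 305 against 57.7 FPKM (2.38 ± 0.16, adjusted p = 0.00084). slo, the large-conductance calcium-activated channel, was at 332 against 72.8 FPKM (2.17 ± 0.17, adjusted p = 0.0011). cac, the presynaptic calcium channel, was at 370.4 against 61.2 FPKM and Ih, the hyperpolarization-activated channel, at 439 against 115 FPKM (2.58 ± 0.19 and 1.92 ± 0.17, adjusted p = 0.0010 and 0.0015). The smallest difference of the list was that of sei, an ERG-type potassium channel, at 45.6 against 27.6 FPKM (0.70 ± 0.16, adjusted p = 0.017). The genes are long, with a median span of 38318 bases, and the 10 that touch no other annotated gene were all higher.

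Transmitter receptor genes were higher as well. Of 9 acetylcholine receptor genes tested 8 were higher (88.9%, against 22.3% of all genes tested) and 1 was lower, with a median of 1.08. Of 13 GABA and glutamate receptor genes 10 were higher (76.9%) and none was lower, with a median of 0.88. Of 14 amine receptor genes 12 were higher (85.7%) and none was lower, with a median of 1.00. Among all genes tested 32.8% were lower. nAcRalpha-30D, a nicotinic receptor subunit, was at 249 FPKM in R57C10 and 46.1 in whole brain, with 164 to 218 elsewhere (log2 difference 2.41 ± 0.18 SE, adjusted p = 0.0010). Rdl, the GABA-gated chloride channel, was at 815 against 185 FPKM, with 702 and 730.2 in OK107 and 393 and 443 in Tdc2 (2.14 ± 0.15, adjusted p = 0.00088). For both genes whole brain was the lowest of the 6 libraries.

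DopR2, a dopamine receptor, was at 23.9 FPKM in R57C10 and 5.58 in whole brain, but at 73.0 and 68.1 in OK107 (log2 difference 1.92 ± 0.18 SE, adjusted p = 0.0015). Octbeta3R, an octopamine receptor, was at 63.7 against 16.3 FPKM and highest in R57C10 (1.91 ± 0.19, adjusted p = 0.0017). The acetylcholine receptor gene that was lower, nAcRbeta-21C, was near the detection limit at 0.247 against 1.21 FPKM (-0.83 ± 0.23, adjusted p = 0.029), and it was not called under median centring or without either OK107 library. ort and HisCl1, which encode histamine-gated chloride channels, did not pass, at 30.8 against 21.5 and 4.38 against 4.06 FPKM.

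Cell-surface recognition genes, which guide axons and choose synaptic partners, followed the receptors. Of 28 long recognition genes tested 23 were higher in R57C10 (82.1%, against 22.3% of all genes tested). None was lower, against 32.8% of all genes tested, and the median was 0.98. Dscam2 was at 249 FPKM in R57C10, 50.8 in whole brain, 171 and 183 in OK107, and 86.7 and 93.2 in Tdc2, highest in R57C10 and lowest in whole brain (log2 difference 2.27 ± 0.14 SE, adjusted p = 0.00064). CadN, the neuronal cadherin, was at 172 against 61.2 FPKM (1.48 ± 0.17, adjusted p = 0.0024). In the dpr and beat families of immunoglobulin proteins 14 of 32 were higher (43.8%) and none was lower, with a median of 0.48. dpr6 had the largest difference of these, at 79.2 against 21.8 FPKM (1.81 ± 0.15, adjusted p = 0.0013). The counts of genes higher in the dpr and beat families were 24 under median centring and 22 after quantile normalization.

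**Figure D3:**
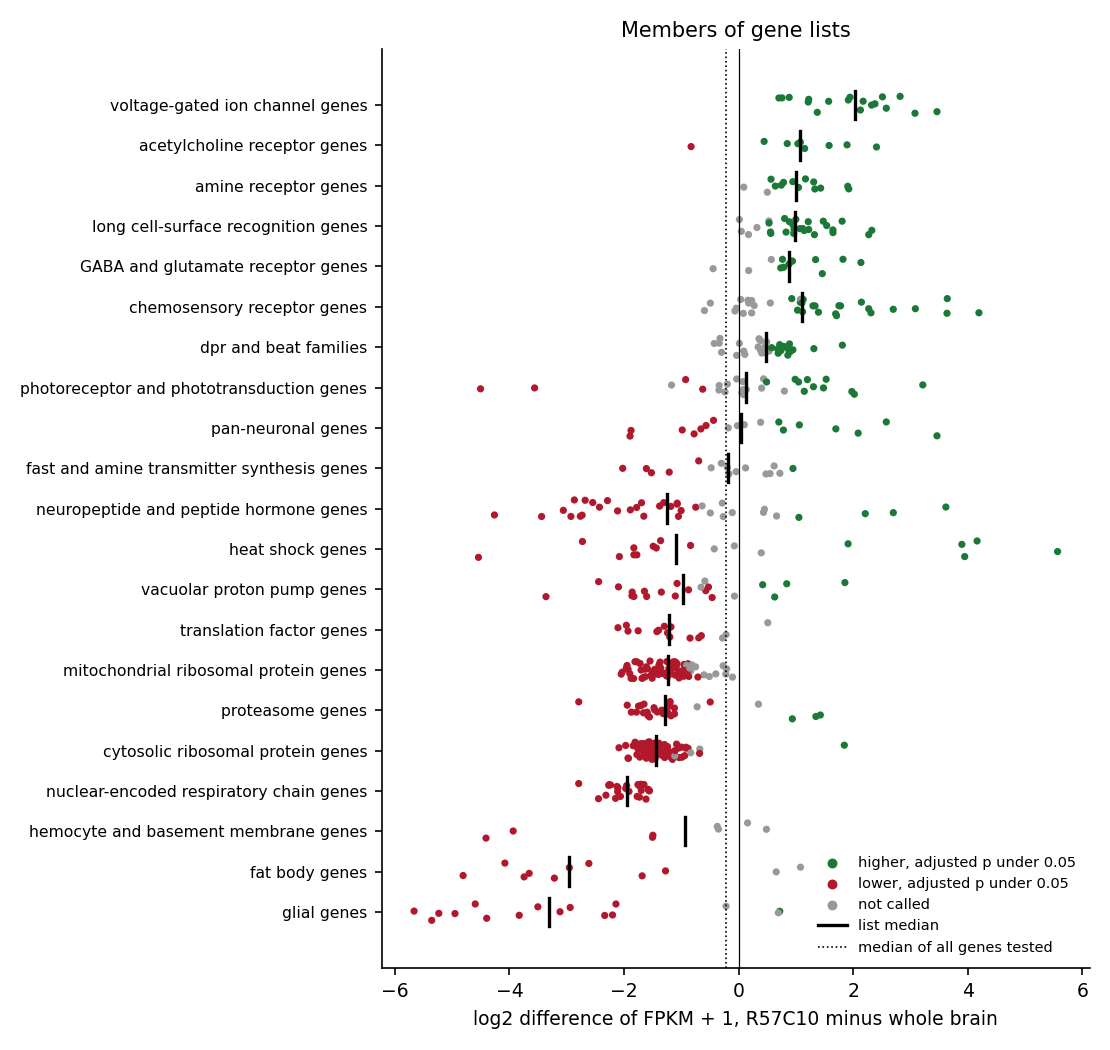
Log2 difference of FPKM + 1, R57C10 minus whole brain, of each tested member of 21 gene lists; points are genes, coloured by call, black bars are list medians and the dotted line is the median of all genes tested (-0.22). Genes of the voltage-gated channel list lie wholly to the right of 0, respiratory chain genes wholly to the left, and pan-neuronal genes on both sides.

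Genes that make or carry transmitters were lower about as often as all genes tested. Of 16 tested 1 was higher in R57C10 and 5 were lower (31.2%, against 32.8% of all genes tested), with a median of -0.18, against -0.22 for all genes, and under median centring the split was 4 to 4. Gad1, which makes GABA, was at 179 FPKM in R57C10, 731 in whole brain, 238 and 219 in OK107, and 159.6 and 181 in Tdc2, so that whole brain stood 4.08-fold above R57C10 (log2 difference -2.02 ± 0.16 SE, adjusted p = 0.0011). VGlut, which loads glutamate into vesicles, was at 168 against 486 FPKM (-1.52 ± 0.14, adjusted p = 0.0014). Trh, the neuronal tryptophan hydroxylase of serotonin synthesis, was at 3.73 against 9.94 FPKM (-1.21 ± 0.18, adjusted p = 0.0046). ple, the tyrosine hydroxylase of dopamine synthesis, was at 16.0 against 50.8 FPKM (-1.61 ± 0.44, adjusted p = 0.030), and was not called after quantile normalization or with no filter on low values. Cha and VAChT, the enzyme and the vesicular transporter of acetylcholine, which share a locus, did not pass, at 106 against 119.8 and 559 against 363 FPKM.

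Neuropeptide and peptide hormone genes were mostly lower in R57C10. Of 43 listed genes 36 were tested, and 24 were lower (66.7%, against 32.8% of all genes tested). Another 4 were higher (11.1%, against 22.3%), and the median was -1.25. Under the other scalings 21 and 19 were lower and 6 and 5 higher. Their summed level was 1313 FPKM in R57C10 and 2948 in whole brain. Dsk, the precursor of the sulfakinins, which act in satiety, was at 14 FPKM in R57C10, 124 in whole brain, 29.9 and 28.2 in OK107, and 185 and 210.4 in Tdc2 (log2 difference -3.06 ± 0.15 SE, adjusted p = 0.00045). Ast-C, the precursor of allatostatin C, was at 22.6 against 179 FPKM, with 151 and 175 in Tdc2 (-2.93 ± 0.16, adjusted p = 0.00053). For both genes R57C10 was the lowest library. Whole brain lay between OK107 and Tdc2 for Dsk and just above Tdc2 for Ast-C.

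Further peptide genes that were lower were itp, Pdf and Ilp5. itp, the ion transport peptide, was at 29.3 against 130.0 FPKM, with 26.6 to 33.6 in the remaining libraries, so that whole brain alone stood apart (log2 difference -2.11 ± 0.13 SE, adjusted p = 0.00067). Pdf, the peptide of the clock neurons, was at 13.6 against 53.2 FPKM (-1.89 ± 0.41, adjusted p = 0.015). Ilp5, an insulin-like peptide of the median neurosecretory cells, was at 9.49 FPKM in R57C10, 200.3 in whole brain, 163 and 173 in OK107, and 3.96 and 2.88 in Tdc2 (-4.26 ± 0.21, adjusted p = 0.00043). Akh, the adipokinetic hormone made in the corpora cardiaca, a gland outside the brain proper, was not tested because it reached 1 FPKM in whole brain only, at 26.1 FPKM, against 0.382 in R57C10 and 0.650 to 0.910 elsewhere.

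The 4 peptide genes that were higher were Ilp1, amn, Ilp4 and Ilp7. Ilp1, an insulin-like peptide gene, was at 53.3 FPKM in R57C10, 3.42 in whole brain and 11.3 to 26.6 in the other libraries (log2 difference 3.62 ± 0.29 SE, adjusted p = 0.0012). amn, which is needed for memory, was at 34.7 against 4.50 FPKM (2.70 ± 0.25, adjusted p = 0.0015). Ilp4, at 5.25 against 0.350 FPKM (2.21 ± 0.24, adjusted p = 0.0022), lies inside an intron of CG32052. Ilp2 and Ilp3 lie inside that gene too and were lower, at 26.0 against 182 and 13.5 against 156 FPKM. Of the 7 tested peptide genes inside an intron 1 was higher. Ilp7 was at 3.15 against 1.00 FPKM (1.05 ± 0.23, adjusted p = 0.015). Of the 21 peptide genes that touch no other annotated gene 16 were lower and none was higher. Among 11 tested genes that process and release peptides 3 were higher (27.3%, against 22.3% of all genes tested) and 1 was lower (9.09%, against 32.8%). Their median was 0.13, and under the other scalings 5 and 7 were higher and none was lower. Fur1, a furin protease, was at 62.3 against 30.9 FPKM (0.99 ± 0.19, adjusted p = 0.0099), while amon, the proprotein convertase of neurosecretory cells, did not pass, at 169 against 128 FPKM.

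**Figure D4:**
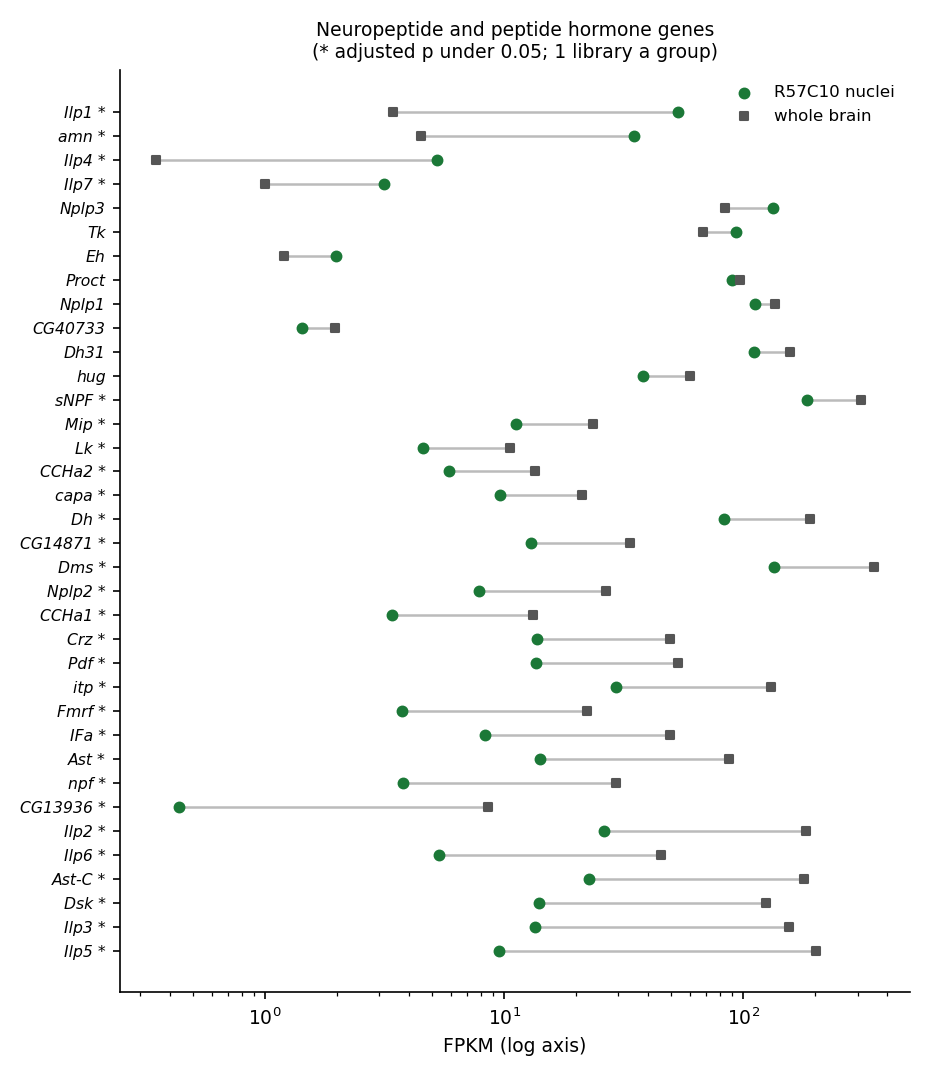
FPKM (log axis) of the 36 tested neuropeptide and peptide hormone genes in R57C10 nuclei (circles) and whole brain (squares), ordered by difference; each point is 1 library and a star marks an adjusted p under 0.05. The 24 genes lower in R57C10 fill the lower part, and Ilp1, amn, Ilp4 and Ilp7 at the top are the 4 that were higher.

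Sensory genes gave a mixed picture. Of 29 photoreceptor and phototransduction genes 11 were higher in R57C10 (37.9%, against 22.3% of all genes tested) and 4 were lower (13.8%, against 32.8%). Their median was 0.13, and under median centring 15 were higher and 2 lower. ninaE, the rhodopsin of the outer photoreceptors, was at 469 FPKM in R57C10, 189 in whole brain, 911 and 895 in OK107, and 4829.5 and 4054 in Tdc2 (log2 difference 1.31 ± 0.17 SE, adjusted p = 0.0033). R57C10 stood above whole brain but below every other library of tagged nuclei. Rh2, the opsin of the ocelli, was at 12.2 against 299 FPKM, and whole brain was the highest library (-4.50 ± 0.14, adjusted p = 0.00028). laza, a lipid phosphatase of phototransduction, was at 25.1 against 1.81 FPKM, with 25.3 to 32.1 in the other libraries (3.22 ± 0.20, adjusted p = 0.00069). retinin, a component of the corneal lens, was at 22.4 against 4.82 FPKM, with 214 to 465 elsewhere (2.01 ± 0.22, adjusted p = 0.0022). It is 1 of 4 eye lens and pigment genes of 9 tested that were higher, against 1 lower, and under median centring 6 were higher and none was lower. Of 8 mechanosensory neuron and cilium genes 3 were higher (37.5%) and 1 was lower (12.5%), but 7 were higher under median centring and 1 after quantile normalization. Of the 15 listed, 7 reached 1 FPKM in R57C10 and 2 in whole brain, so the filter on low values can tilt this split. The higher ones, btv, tilB and Oseg6, were at 2.69 FPKM or less in R57C10 and 0.967 or less in whole brain.

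Of 180 chemosensory receptor genes 34 passed the filter on low values. Of those 21 were higher in R57C10 (61.8%, against 22.3% of all genes tested) and none was lower. At least 1 FPKM was listed for 32 of the 180 in R57C10 and 15 in whole brain, so the filter itself can tilt this split. At 0 FPKM were listed 20 of the 180 in R57C10 and 45 in whole brain. Of the 21 higher genes 12 lie inside an intron of another gene, as do 17 of the 34 tested. Or45a, an odorant receptor gene inside CG13739, was at 56.7 FPKM in R57C10, 2.15 in whole brain, 53.8 and 53.9 in OK107, and 14.3 and 25.8 in Tdc2 (log2 difference 4.20 ± 0.38 SE, adjusted p = 0.0015). Gr47a, a gustatory receptor gene inside CG42732, was at 60.5 against 3.94 FPKM (3.64 ± 0.28, adjusted p = 0.0011). As the library kit does not mark strand, reads of such a gene and of the intron around it cannot be told apart. Of 19 odorant-binding protein genes 7 were higher (36.8%) and 4 lower (21.1%, against 32.8% of all genes tested). Under median centring 9 and 2 were, and after quantile normalization 6 and 3. Obp85a was at 59.2 against 2.19 FPKM (4.24 ± 0.43, adjusted p = 0.0018). Obp44a, at the other end, had the largest negative difference of all genes tested, at 25.4 FPKM in R57C10, 2984 in whole brain, 71.3 and 76.4 in OK107, and 126 and 112 in Tdc2 (-6.82 ± 0.15, adjusted p = 0.00028).

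Genes of general metabolism and protein synthesis were lower almost throughout. Of 85 cytosolic ribosomal protein genes tested 81 were lower in R57C10 (95.3%, against 32.8% of all genes tested) and 1 was higher. Their median was -1.44, and 76 were at least 2-fold lower. RpS18 was at 169.9 FPKM in R57C10, 650.1 in whole brain, 188 and 226 in OK107, and 437 and 499 in Tdc2 (log2 difference -1.93 ± 0.19 SE, adjusted p = 0.0017). On the same base as above, the 92 listed genes made up 2.00% of FPKM in R57C10 and 4.15% in whole brain, with 2.28% and 2.49% in OK107 and 5.04% and 5.37% in Tdc2. Tagged nuclei were thus not all low in them. RpS10a, the exception, is a copy of RpS10b and was at 5.58 against 0.831 FPKM (1.85 ± 0.19, adjusted p = 0.0019).

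The genes of energy metabolism were lower with 1 exception, while 32.8% of all genes tested were lower. All 25 nuclear-encoded respiratory chain genes tested were lower in R57C10 under the deposited scaling and under both others, with a median of -1.95 and a share of FPKM of 0.670% against 2.07%. ATPsyn-beta, the catalytic subunit of the ATP synthase, was at 194 FPKM in R57C10, 1347 in whole brain and 311 to 399 in the rest, so that whole brain stood apart from all 5 libraries of tagged nuclei (log2 difference -2.79 ± 0.14 SE, adjusted p = 0.00043). sesB, the ADP/ATP carrier of the mitochondrion, was at 351 against 1558 FPKM (-2.15 ± 0.14, adjusted p = 0.00067). Of 11 glycolysis genes 10 were lower, among them PyK, pyruvate kinase, at 47.0 against 267 FPKM (-2.48 ± 0.15, adjusted p = 0.00064). ImpL3, lactate dehydrogenase, was the exception, at 91.4 FPKM in R57C10, 3.26 in whole brain, 158 and 152 in OK107, and 1.62 and 1.54 in Tdc2 (4.44 ± 0.14, adjusted p = 0.00028). It was high in R57C10 and OK107 and low in whole brain and Tdc2.

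The other housekeeping lists went the same way. In those given here 68.2% to 88.5% of the genes tested were lower, against 32.8% of all genes tested. Of 71 mitochondrial ribosomal protein genes 58 were lower and none was higher (median -1.23), and 40 were lower under each of the other scalings. Of 16 translation factor genes 13 were lower and none was higher, or 11 and 1 under median centring (median -1.22), Ef1alpha48D being at 229 against 892 FPKM (log2 difference -1.96 ± 0.13 SE, adjusted p = 0.00077). Proteasome genes were lower in 27 of 32 cases and higher in 3 (median -1.29). The 3 that were higher, Pros28.1A, Rpn12R and Rpt3R, lay at 4.27 FPKM or less in R57C10, and 2 of them lie inside an intron of another gene. Rpt3R was not called without either OK107 library, and Rpn12R not with a pseudocount of 5. Of 22 vacuolar proton pump genes 15 were lower and 4 higher (median -0.97). Histone genes were lower in 23 of 26 cases, but most are near-identical copies with identical values and do not count as separate observations.

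Stress genes differed in direction between families. Of 18 heat shock genes tested 5 were higher in R57C10 (27.8%, against 22.3% of all genes tested) and 10 were lower (55.6%, against 32.8%). Under each of the other scalings 6 were higher and 7 lower. Hsp70Bb, an inducible chaperone, was at 325 FPKM in R57C10, 5.86 in whole brain, 211 and 213 in OK107, and 157 and 108 in Tdc2 (log2 difference 5.57 ± 0.27 SE, adjusted p = 0.00043). All 5 libraries of tagged nuclei were far above whole brain. Hsp70Ba, Hsp70Bc and Hsp70Bbb, which are near-identical copies that can share reads with it, differed by 4.16, 3.95 and 3.9. Hsp83, the Hsp90 chaperone, was lower in R57C10, at 108 against 386 FPKM (-1.83 ± 0.13, adjusted p = 0.00084). So was Hsp67Bc, a small heat shock protein, at 1.55 against 58.3 FPKM (-4.54 ± 0.25, adjusted p = 0.00053). Whether handling, freezing or capture bears on the Hsp70 levels was not tested.

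Of 10 circadian clock genes 5 were lower (50%) and 2 were higher (20%), or 3 and 2 under each of the other scalings. Among all genes tested 32.8% were lower and 22.3% were higher. cry, the blue-light receptor of the clock, was at 1.70 against 13.4 FPKM (log2 difference -2.42 ± 0.21 SE, adjusted p = 0.0013), and Pdfr, the receptor for the peptide PDF, at 42.8 against 16.7 FPKM (1.3 ± 0.16, adjusted p = 0.0030). The hour of collection is not given. Among 20 splicing and nuclear RNA factor genes 6 were higher (30%) and 4 were lower (20%), and under median centring 9 and 2. B52, an SR splicing factor, was at 255 against 54.5 FPKM (2.20 ± 0.25, adjusted p = 0.0025) and snf, a U1 and U2 snRNP protein, at 9.76 against 38.8 FPKM (-1.89 ± 0.25, adjusted p = 0.0035). Of 9 immediate early candidates 3 were higher (33.3%) and 2 lower (22.2%). Among them puc, a phosphatase that restrains JNK signalling, was at 121 against 34.1 FPKM (1.8 ± 0.13, adjusted p = 0.00090). Of 8 antimicrobial peptide genes 3 were higher (37.5%), or 1 after quantile normalization, and none was lower. Of the 14 listed, 4 reached 1 FPKM in R57C10 and 2 in whole brain. AttA and AttB, among those higher, were near the detection limit, at 0.980 against 0.179 and 1.21 against 0.191 FPKM. Mtk, which encodes metchnikowin, was at 9 against 1.14 FPKM (2.23 ± 0.41, adjusted p = 0.0094).

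Across all genes the largest positive difference was that of CG6912, at 110.4 FPKM in R57C10, 0.588 in whole brain and 71.8 to 88.3 in the other libraries (log2 difference 6.13 ± 0.15 SE, adjusted p = 0.00028). CG42810, at 45.7 against 0.0510 FPKM and 37.2 to 40.3 elsewhere, differed by 5.47 ± 0.15 (adjusted p = 0.00028) and lies in an intron of CG42784. For these 2 genes and Hsp70Bb, the 3 largest positive differences, whole brain was the single low library. w, the eye pigment transporter, was at 26.3 against 0.430 FPKM, with 139.9 and 151 in OK107 (4.26 ± 0.23, adjusted p = 0.00053). That gene lies inside an intron of kirre and is also the usual marker gene carried by transgenes, and the genotypes beyond the driver are not given in the sources used here.

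After Obp44a the largest negative differences were those of CG9377, at 0.0454 against 115 FPKM, and CG8369, at 7.28 against 755 FPKM (log2 differences -6.80 ± 0.69 SE and -6.51 ± 0.24, adjusted p = 0.0019 and 0.00030). Ugt35b, a glycosyltransferase, was at 1.5 against 128 FPKM, with 5.81 to 6.41 elsewhere (-5.69 ± 0.17, adjusted p = 0.00028). MtnA, a metallothionein, was at 5.13 against 297 FPKM (-5.60 ± 0.31, adjusted p = 0.00053). For CG9377, CG8369, Ugt35b and MtnA whole brain was the highest library and R57C10 the lowest. The most abundant transcript of whole brain, noe, was at 14595 FPKM there and 529 in R57C10, and the 10 most abundant genes held 11.51% of all FPKM in whole brain against 5.81% in R57C10. In R57C10 the most abundant were nrv3, a neuronal sodium pump subunit, at 2625 FPKM, its partner Atpalpha at 2280.2 and cpx at 2266.

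The difference also followed the position and size of genes, as a description across genes that are not independent replicates. Of the tested genes 9346 were matched to a current annotation, of another build than the authors', and 916 of them lie wholly inside an intron of another gene. Of these nested genes 629 (68.7%) were higher in R57C10 and 85 (9.28%) were lower, with a median of 1.48. Of the 8430 others 1379 (16.4%) were higher and 3039 (36%) were lower, with a median of -0.32. The median was 1.47 for 645 nested genes on the strand opposite to the gene around them and 1.5 for 271 on the same strand. Nested genes were 65.2% of those at least 4-fold higher in R57C10, 4.26% of those less than 2-fold apart and 5.23% of those at least 4-fold lower.

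The nested genes' difference was larger where the gene around them had a higher level. In the lowest quartile of that host level, up to 11 FPKM in R57C10, their median was 0.32, and it was 1.44, 1.85 and 2.15 in the next ones. Host and nested levels come from the same library and, without strand, can share reads, so these medians are given with no test. Among genes not inside an intron, the median difference was -0.70 in the quartile of shortest spans (195 to 1590 bases) and -0.52, -0.26 and 0.24 in the following ones, the last covering 7193 to 396040 bases. With genes that touch any other gene left out, these medians were -0.58, -0.56, -0.28 and 0.19. By number of exons, again among genes not inside an intron, the median was -0.48 for single-exon genes, -0.54 for 3 to 4 exons and 0.51 for 11 or more.

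**Figure D5:**
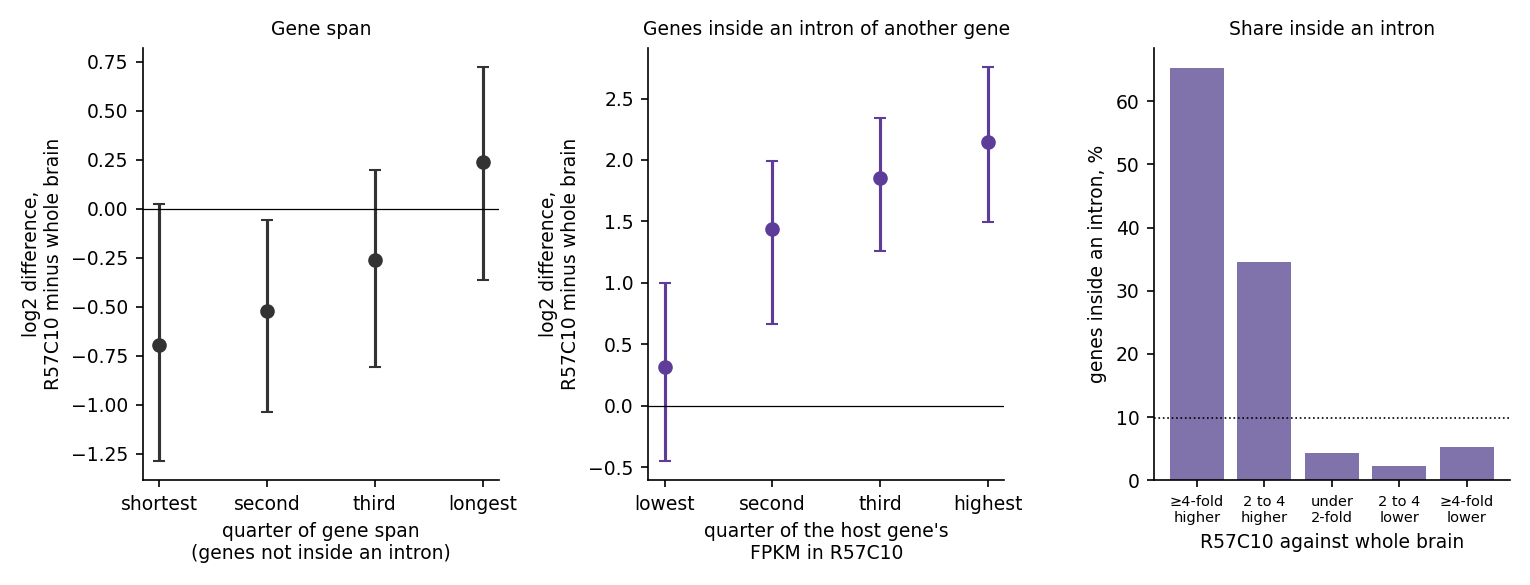
Left and middle, median log2 difference, R57C10 minus whole brain, with bars from the lower to the upper quartile of genes, by gene span (genes not inside an intron) and by the host gene's FPKM in R57C10 (916 genes inside an intron); right, percent of genes inside an intron by size of difference, with the share among all matched genes (9.80%) dotted. The medians rise from -0.70 to 0.24 with span and from 0.32 to 2.15 with host level, and genes inside an intron make up 65.2% of those at least 4-fold higher.

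In FPKM, over genes with a value in every library, the 1421 genes of longest span held 38.6% of R57C10 and 24.4% of whole brain, and 28.7% to 33.1% of the other libraries. The 1608 genes inside an intron held 4.54% and 2.96%, and 3.67% to 4.17% elsewhere. For both classes R57C10 was the highest of the 6 libraries and whole brain the lowest. Among the lists above, the median span was 1361 bases for the ribosomal protein genes, 38318 bases for the voltage-gated channel genes and 40274 bases for the long recognition genes. Span moves with gene group in these lists, and its part in their differences was not tested. The glial list, with a median span of 7353 bases, was mostly lower, and among its 8 tested genes that touch no other gene 7 were lower.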

How the data were processed

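RNA-seq libraries were analysed, 1 each of R57C10 and whole brain and 2 each of OK107 and Tdc2. The deposited table holds FPKM per gene as computed by the authors in Cuffdiff, per the file headers. The submitters' processing notes list CASAVA 1.8, TopHat 1.4.0, Cuffdiff 1.3.0, bedtools 2.15 and build dm3. Per the labels' protocols, cDNA was made with a NuGEN Ovation RNA-seq v2 kit and read as 50-base reads on an Illumina HiSeq. Columns were assigned by the group in their names, where R57C10, whole brain and 1 Tdc2 library carry the same tag, which reads like a date. The other Tdc2 library carries a different tag, which the OK107 libraries share with a letter a or b added. The Tdc2 pair that helped set the spread thus differs in tag, while the OK107 pair differs in the letter only. A further 4 FPKM columns, which repeat a library in another comparison, and the authors' own tests were not used.

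The table's 92 spike-in rows were dropped. Of 15551 fly genes 683 lacked a value in at least 1 library (581 of them in R57C10 or whole brain) and 5263 were under 1 FPKM in all but at most 1 library, which left 9605. limma 3.58.1 (R 4.3.3) gave the tests (group means over 6 libraries, eBayes with trend and robust) on log2(FPKM + 1), with Benjamini-Hochberg adjustment over all genes tested. The script was tested on simulated data. The design had been written for either unit, and FPKM was found. Depth was read from the steps between low values of genes with 1 isoform, of which 58.5% to 64.4% lay within 0.2 of a whole read (40% by chance), so depths are estimates and counting intervals are not given.

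The comparison and the 36 gene lists were chosen with earlier results of these data known. After the table was seen, Cpr was dropped from the tracheal list, and Prosap and HisCl1, caught by name patterns, from the proteasome and histone lists. Named genes were the 15 largest called differences each way at 10 FPKM or more (with genes known only by number among the first 3), up to 6 members of smallest p in each list, the 3 highest and 3 lowest of lists made by prefix, and untested genes at 10 FPKM or more in 1 library of the pair and under 1 FPKM elsewhere. Other genes were named after their values were seen, namely elav, cpx, n-syb, Syt1, brp, drpr, Nrx-IV, Eaat2, sei, ort, HisCl1, Ilp1, amn, Ilp4, Ilp7, Pdf, Cha, VAChT, noe, nrv3 and Atpalpha. Symbols are those of the table; current ones were matched for 14782 genes. Nesting, span and exons came from the BDGP6.54 annotation, release 115 (14745 genes matched).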

Additional observations from a re-analysis of the deposited data

How the results depend on the processing

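No paired analysis was possible because the columns carry no replicate number for R57C10 or whole brain and each has 1 library. Leaving out an OK107 or a Tdc2 library in turn gave 3759 to 7132 genes called (1525 to 2885 higher, 2234 to 4248 lower), and the spread of the OK107 pair alone or the Tdc2 pair alone gave 7137 and 3774. Leaving out 1 library of a pair leaves only the other pair to set the spread, with the differences unchanged. With a Tdc2 library left out the closer OK107 pair set it and every call was kept, which is no check of the calls. With an OK107 library left out the Tdc2 pair set it and 70.9% to 70.95% of calls were kept. Genes called lower numbered 2068 under median centring and 2068 after quantile normalization, where 2 genes were called the other way. Median centring left 1363 genes at least 2-fold lower. Calls were 2932 (1189 higher, 1743 lower) with a mean of at least 10 FPKM, 3155 (1256 and 1899) with single-isoform genes and 2554 (787 and 1767) with genes that touch no other gene, a restriction added after seeing the data; each tests fewer genes. Under the same 3 restrictions at least 2-fold differences numbered 1772 (634 higher, 1138 lower), 2283 (1307 lower) and 1631 (435 and 1196), and at least 4-fold ones 250 higher and 334 lower, 329 lower, and 109 and 343. A pseudocount of 5 gave 2015 (762 and 1253) at 2-fold and 137 and 287 at 4-fold; a pseudocount of 0.1 gave 975 at 4-fold higher. The pseudocount sets how far low levels can differ. The median difference of genes in the upper quartile of a measure, minus that in its lower quartile, was taken over all matched genes. It was 0.64 by span, 0.70 by spliced length, 0.27 by exons and 0.11 by annotated transcripts. With a mean of at least 10 FPKM these were 1.44, 1.53, 1.02 and 0.52. With single-isoform genes the first 3 were 0.27, 0.32 and 0.033. The cause was not tested. Of 220 named genes no call turned to the other direction under median centring or quantile normalization. The other settings cannot change the sign of a difference between 1 library and 1 library, so they could not turn a call. Median centring ended 10 calls, quantile normalization 16 and leaving out either OK107 library 23. With 1 library on each side there is no replicate of either group, and levels near 1 FPKM rest on few reads.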

Other observations

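Among genes left untested, 138 were at 10 FPKM or more in R57C10 or whole brain. The following 4 lacked a value in at least 1 of the 6 libraries. brp, the active zone scaffold, was at 319 FPKM in R57C10 and 87.1 in whole brain, and Syt1, the vesicle calcium sensor, had no value in R57C10 and was at 776 FPKM in whole brain. Vmat, the vesicular transporter of monoamines, was at 344 and 316 FPKM, and Eaat1, the glial glutamate transporter, at 67.4 and 596 FPKM. These genes were chosen after their values were seen.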
